A study of Mus musculus with 4 samples.

Results

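Chemokines are small secreted proteins that guide cells, above all leukocytes, along concentration gradients, and fibroblasts are one of their sources. The 10 genes described here are Cxcl1, Cxcl2, Cxcl5, Cxcl12, Cxcl16, Ccl2, Ccl7, Ccl8, Ccl9 and Ccl20. They were found on the arrays through the RefSeq accession of each probe, which gave 13 probes for the 10 genes, out of 18353 genes with a matched symbol on the array. The cells were mouse embryonic fibroblasts without p53, and all of them carried retrovirally delivered OSK, a name generally used for the reprogramming factors Oct4, Sox2 and Klf4. The 2 OSK samples received these factors alone, and the 2 OSK+Glis1 samples received the zinc finger factor Glis1 as well. All labels give day 5 for the RNA. The names of the scanner tables hold a number that is not the same for replicate 1 and replicate 2, alike in both groups, and no source used here explains it, so the replicates may differ by a time or batch that the labels do not give. The labels call the OSK samples embryonic fibroblasts and the OSK+Glis1 samples iPSCs derived from them, and fibroblast marker genes were measured in both groups. Untransduced fibroblasts and cells with Glis1 alone were not analysed here. The labels do not state whether the 2 samples of a group were separate cultures, and p-values here reflect only how far these samples differ, possibly for technical reasons. The Glis1 probe read -3.26 and -3.34 in the samples labelled OSK and -3.28 and -3.73 in those labelled OSK+Glis1. It was thus no higher where Glis1 was added, it gave no check of the labels, and every direction below refers to the groups as labelled.

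The family is named for the spacing of its leading cysteines, CXC or CC. Some CXC chemokines (Cxcl1, Cxcl2, Cxcl3 and Cxcl5 in the mouse) act on the receptor Cxcr2 and attract neutrophils, while CC chemokines such as Ccl2 and Ccl7 act on Ccr2 and attract monocytes. In fibroblasts the inflammatory members are classical targets of NF-kB, the transcription factor activated by interleukin 1, tumour necrosis factor and Toll-like receptors, whereas Cxcl12 is made constitutively by many mesenchymal cells and acts on Cxcr4.

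Levels are given as log2 of the scanner's processed signal minus the array's 75th percentile, so that 0 means the signal of a probe at that percentile. A level of one probe cannot be set against that of another probe, because probes differ in how they bind, so only differences between arrays are compared. By the scanner's own flag, the share of spots well above background ranged over the arrays from 59.9% to 65.2%, and no spot was saturated. Precision is limited by the 2 arrays per group.

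With Glis1, 4 of the 9 chemokines tested fell and none rose: Cxcl5, Ccl20, Cxcl16 and Cxcl1 passed an adjusted p of 0.05 in limma. Among all 19171 genes tested, 8.17% were called lower and 6.05% higher, 14.2% in all. The median log2 difference of the 9 chemokines was -1.79, against 0.05 over all genes. Both OSK+Glis1 arrays lay below both OSK arrays for 6 of the 9, as they did for 26.6% of all genes, and the groups did not overlap in either direction for 7, as for 59.9% of all genes. Ccl20 and Ccl9 entered the test through their OSK arrays alone (Ccl20 was well above background on neither OSK+Glis1 array, Ccl9 on 1). Entry in that way favours genes that differ, so the counts describe the list and do not support it. Of the 7 chemokines that were well above background on all 4 arrays, 3 were called lower when only such genes were tested. Of all 17350 genes tested in that way, 1323 were lower and 935 higher. The opposite direction was seen for Ccl2, whose difference of 1.29 did not pass the test. Leaving out OSK replicate 1, OSK replicate 2 or OSK+Glis1 replicate 2 left 2 chemokines lower in each case, Cxcl5 and Ccl20, and 5 were lower without OSK+Glis1 replicate 1. Ccl2 was called higher without OSK+Glis1 replicate 2. After a plain normexp background correction limma called none of the chemokines and no gene at all (4 chemokines had an unadjusted p under 0.05). With no filter on dim probes 2 chemokines were lower, Cxcl5 and Ccl20, beside 950 of all 32172 genes. Fewer cells making a chemokine and less RNA per cell cannot be told apart in such bulk samples.

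**Figure D1:**
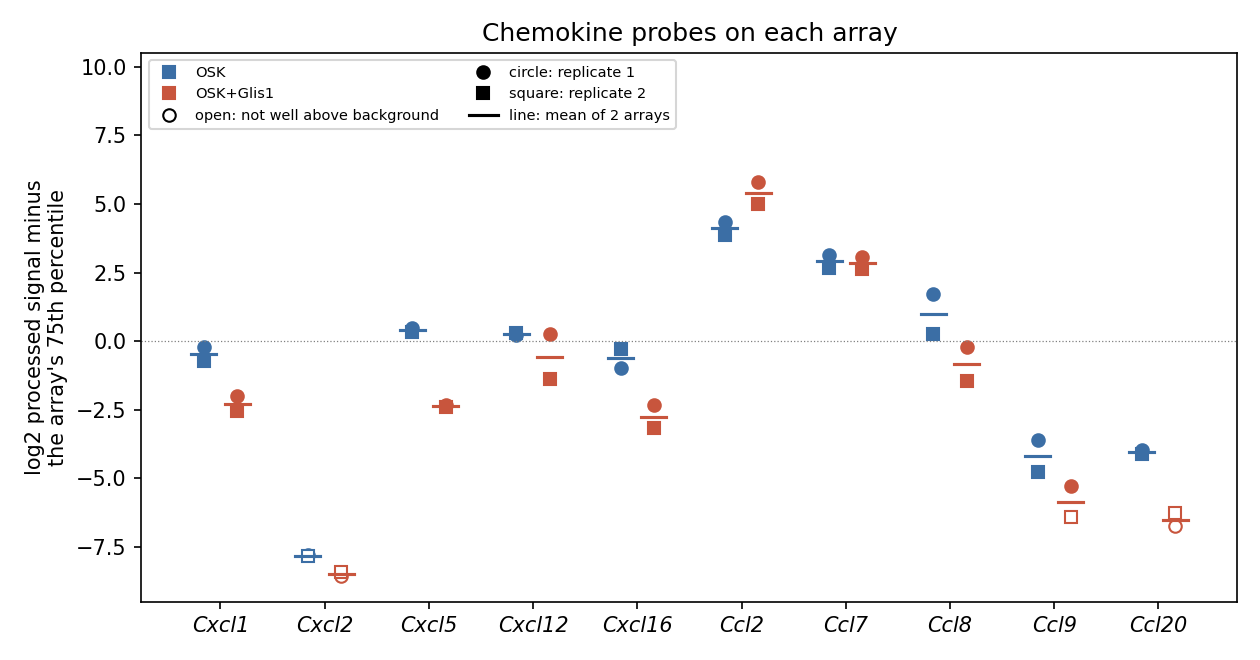
Level of each chemokine on each array (y axis: log2 processed signal minus the array's 75th percentile; blue OSK, red OSK+Glis1; circles replicate 1, squares replicate 2; horizontal lines are the means of 2 arrays; open symbols are not well above background). For Cxcl5 the OSK arrays lie at 0.48 and 0.32 and the OSK+Glis1 arrays at -2.33 and -2.40, while Cxcl2 has open symbols on all 4 arrays.

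Cxcl5, a neutrophil attractant acting on Cxcr2, showed the tightest replicates among the chemokines that fell. Its probe (A_52_P295432) read 0.48 and 0.32 on the OSK arrays and -2.33 and -2.40 on the OSK+Glis1 arrays. The gap between the groups was wider than the spread within them. The fall was 6.8-fold, a log2 difference of -2.77 with an SE of 0.17, and limma gave an adjusted p of 0.00253. The difference ran from -2.84 to -2.69 when each array was left out in turn, and the call held each time.

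Cxcl1, another ligand of Cxcr2 and an early response gene of stimulated fibroblasts, fell 3.47-fold. Its levels were -0.23 and -0.72 in OSK and -2.0 and -2.54 in OSK+Glis1, so both OSK arrays were above both OSK+Glis1 arrays. The adjusted p from limma was 0.0197 for a log2 difference of -1.79 ± 0.29 SE. It was 0.0927, 0.0637 and 0.0645 without OSK replicate 1, OSK replicate 2 and OSK+Glis1 replicate 2. Cxcl2, the gene next to Cxcl1 and a close relative of it, was not well above background on any of the 4 arrays. Its levels of -7.79 and -7.84 in OSK and -8.57 and -8.40 in OSK+Glis1 were therefore not tested and give no fold.

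The promoters of 3 genes are shown because 2 of them, Cxcl1 and Ccl20, fell with Glis1, while Cxcl2, the neighbour of Cxcl1, was not well above background in either group. Each is the stretch of 250 bases before the annotated gene start, from RefSeq's annotation of build GRCm38.p6, all on the plus strand: chr5:90890995-90891244 for Cxcl1, chr5:90903649-90903898 for Cxcl2 and chr1:83116516-83116765 for Ccl20. Capitals mark matches to the kappaB consensus, the binding motif of NF-kB, searched on both strands.
Cxcl1: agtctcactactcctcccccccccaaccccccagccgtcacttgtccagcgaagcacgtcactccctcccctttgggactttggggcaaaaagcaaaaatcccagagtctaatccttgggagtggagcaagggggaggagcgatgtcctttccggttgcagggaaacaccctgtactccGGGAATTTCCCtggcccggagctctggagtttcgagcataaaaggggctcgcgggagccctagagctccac
Cxcl2: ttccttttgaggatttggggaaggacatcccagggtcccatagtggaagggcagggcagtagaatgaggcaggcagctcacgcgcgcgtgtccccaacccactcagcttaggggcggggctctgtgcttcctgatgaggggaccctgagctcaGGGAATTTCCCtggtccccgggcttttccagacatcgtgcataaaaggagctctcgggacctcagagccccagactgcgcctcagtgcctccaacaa
Ccl20: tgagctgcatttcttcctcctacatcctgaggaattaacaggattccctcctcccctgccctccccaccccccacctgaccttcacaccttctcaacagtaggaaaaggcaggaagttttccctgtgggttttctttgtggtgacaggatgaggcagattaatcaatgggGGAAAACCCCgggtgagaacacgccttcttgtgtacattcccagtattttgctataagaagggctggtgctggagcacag

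The match in Cxcl1 starts 71 bases before the gene start and the match in Cxcl2 starts 97 bases before it. Both read GGGAATTTCC on the gene strand, and each overlaps a match on the other strand that begins 1 base further on, GGGAAATTCC. The match in Ccl20 lies on the opposite strand, where it reads GGGGTTTTCC, and starts 80 bases before the gene start. Of the 6 chemokines with a sequence in the promoter table, 4 held a match (Cxcl1, Cxcl2, Ccl9 and Ccl20) and 2 did not (Cxcl12 and Ccl8), whereas 7.25% of 32851 promoter windows of the same length held one. Cxcl5, Cxcl16, Ccl2 and Ccl7 had no entry in the table. A match is a description of these letters and not a measured binding site: Cxcl1 and Cxcl2 carry the same 11 letters in capitals, and the probe of only one of them was well above background here.

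Ccl20, the ligand of Ccr6 and an attractant of dendritic cells and some T cells, was at -3.95 and -4.12 in OSK and at -6.75 and -6.25 in OSK+Glis1. It was well above background on both OSK arrays and on neither OSK+Glis1 array. Its fold was therefore computed with a floor on the scale of the processed signal, which gave 4.64-fold lower with Glis1. A floored fold sets the mean of the bright group against the higher of the dim probe's own signal and a floor. The floor is the lowest signal that was well above background on that array. It is not a detection limit, so a floored fold is not a strict minimum. For example, Mpo, well above background on no array, read -6.02 on OSK+Glis1 replicate 1, where the floor was -6.36. The fitted log2 difference was -2.46 ± 0.23 SE (limma adjusted p = 0.00543), and it was called without each array in turn, between -2.71 and -2.21. The probe was dim even in OSK, with processed signals of 61.4 and 38.5 intensity units there and 7.86 and 12.5 in OSK+Glis1. After normexp correction, with an offset of 50 added to all signals and flagged local backgrounds replaced, the difference was -0.64 (limma adjusted p = 0.0446). Such an offset brings the log2 differences of dim probes nearer to 0.

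Cxcl16 is an unusual chemokine that is made as a membrane protein with a chemokine head and is released by shedding. Its levels were -0.99 and -0.27 in OSK and -2.34 and -3.18 in OSK+Glis1. This was a fall of 4.38-fold, or -2.13 ± 0.39 SE on the log2 scale, with an adjusted p of 0.0294 in limma. A second probe for the same transcript read -0.96 and -1.35 in OSK and -2.87 and -3.64 in OSK+Glis1, a difference of -2.10. The arrays of the groups did not overlap on either probe. The replicates lay further apart than for Cxcl5, and the adjusted p was 0.0742, 0.133 and 0.0761 without OSK replicate 1, OSK replicate 2 and OSK+Glis1 replicate 2.

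Cxcl12, the constitutive ligand of Cxcr4 and Ackr3, was split between the OSK+Glis1 arrays. The probe designed to transcript NM_001012477 read 0.22 and 0.29 in OSK, and 0.24 and -1.38 in OSK+Glis1. Replicate 1 of OSK+Glis1 therefore lay within the OSK range and replicate 2 well below it. A second probe, designed to transcript NM_021704, showed the same split, with -1.50 and -2.10 in OSK and -1.75 and -3.75 in OSK+Glis1. The log2 difference was -0.82 ± 0.55 SE for the brighter probe, with a 95% confidence interval of -2.25 to 0.60 and a limma adjusted p of 0.4. Its value depended on that 1 array: it was -0.01 without OSK+Glis1 replicate 2, and -1.63 without OSK+Glis1 replicate 1 (limma adjusted p = 0.0341).

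**Figure D2:**
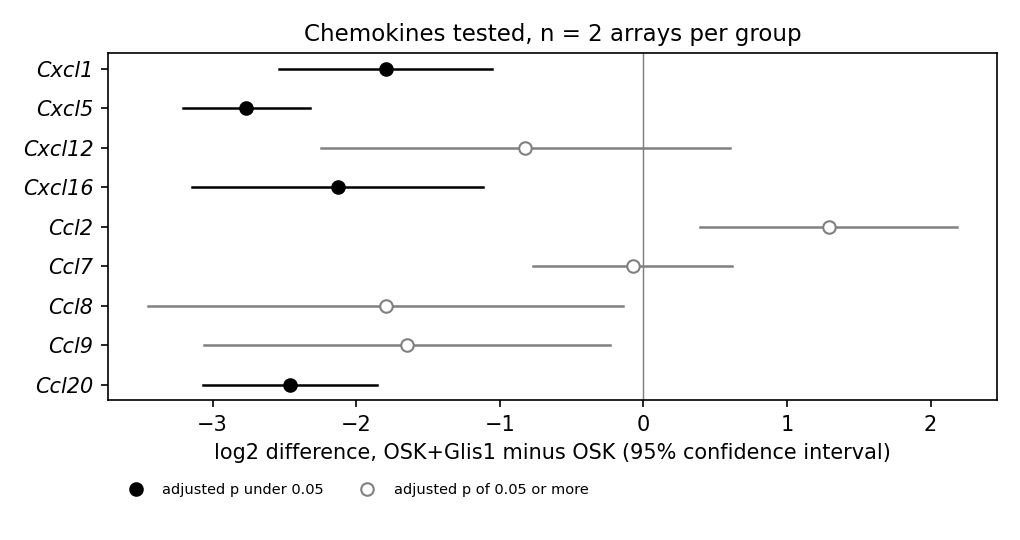
Log2 difference between OSK+Glis1 and OSK for the 9 chemokines tested (x axis; points are differences of group means of 2 arrays, bars 95% confidence intervals from limma; filled points passed an adjusted p of 0.05). Cxcl1, Cxcl5, Cxcl16 and Ccl20 are filled and lie left of 0, and Ccl2 is the only point clearly to the right. The value of Ccl20 uses OSK+Glis1 signals that were not well above background, and that of Ccl9 does so for OSK+Glis1 replicate 2.

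Neither monocyte attractant acting on Ccr2 passed the test. Ccl2, the main ligand of Ccr2, was at 4.34 and 3.87 in OSK and at 5.81 and 4.99 in OSK+Glis1, so both OSK+Glis1 arrays were above both OSK arrays. As processed signals, averaged over the 10 spots of this probe on each array, these were 19342 and 9821 in OSK and 47417 and 30206 in OSK+Glis1. The difference of 1.29 ± 0.34 SE, with a 95% confidence interval of 0.40 to 2.18, missed the threshold at a limma adjusted p of 0.0776. It was 0.0486 with each array centred on its median, which adds the same constant to the difference of every gene, and 0.0473 without OSK+Glis1 replicate 2.

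Ccl7, which lies next to Ccl2 and acts on some of the same receptors, read 3.16 and 2.67 in OSK and 3.07 and 2.61 in OSK+Glis1, and the groups overlapped. Its difference was -0.07 ± 0.27 SE with a 95% confidence interval of -0.77 to 0.62 (limma adjusted p = 0.889); its sign changed with the scaling, to 0.06 with median centring. The second Ccl7 probe gave 2.75 and 2.11 in OSK and 2.50 and 2.16 in OSK+Glis1, a difference of -0.10. Whether Ccl2 and Ccl7 differ from each other in their response was not tested.

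Ccl8 and Ccl9 had lower values with Glis1 that did not pass the main test. A fit with the replicate number as a block called both (limma adjusted p of 0.00884 and 0.0102). The labels do not say whether the numbers pair. Ccl8, an attractant of monocytes and T cells, read 1.70 and 0.24 in OSK and -0.21 and -1.44 in OSK+Glis1. The groups did not overlap, and the difference was -1.80 ± 0.64 SE (limma adjusted p = 0.145). Under normexp with flagged backgrounds replaced it was -1.68 (limma adjusted p = 0.0468). Ccl9, a ligand of Ccr1, read -3.61 and -4.78 in OSK and -5.29 and -6.40 in OSK+Glis1, where only 1 of 2 arrays was well above background. Its difference was -1.65 ± 0.54 SE, with an adjusted p of 0.125 in limma. Under normexp with flagged backgrounds replaced it was -0.66 (limma adjusted p = 0.0506). The 95% confidence interval, not adjusted for the number of genes, reached from -3.45 to -0.14 for Ccl8 and from -3.06 to -0.23 for Ccl9, which was tested only because it was high in OSK.

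**Figure D3:**
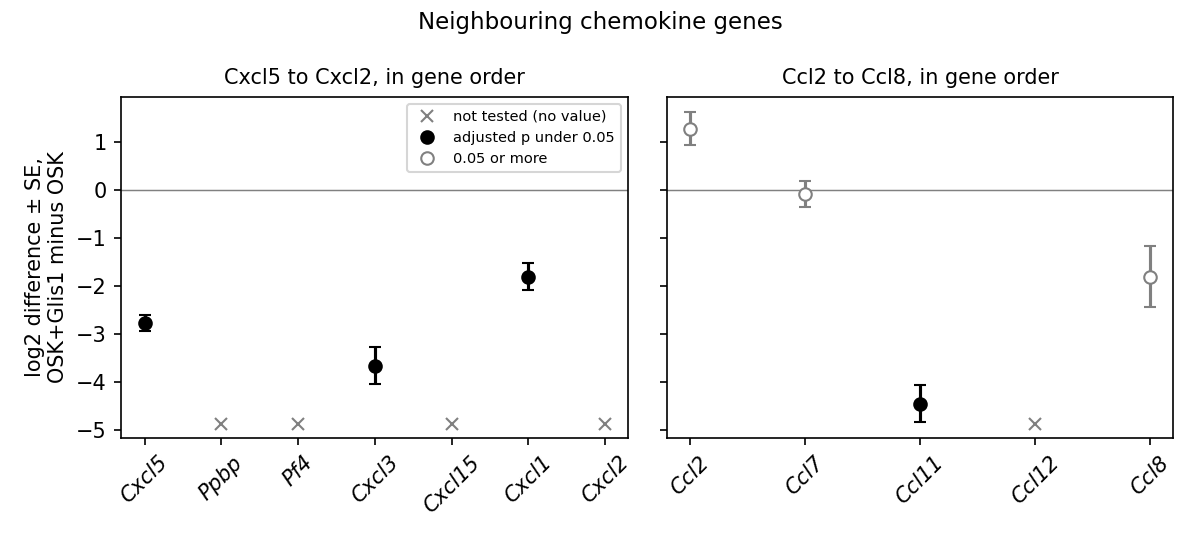
Log2 difference, OSK+Glis1 minus OSK, with its SE (y axis), for genes in the order in which they lie on the chromosome, from Cxcl5 to Cxcl2 and from Ccl2 to Ccl8 (x axis, not to scale; filled points passed an adjusted p of 0.05; crosses were not tested and have no value). The 3 tested genes on the left all fell, while values on the right run from 1.29 for Ccl2 to -4.45 for Ccl11. The values of Ccl11 and Cxcl3 use OSK+Glis1 signals that were not well above background.

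Chemokine genes lie in clusters, and the neighbours of the genes above were looked at after their values were seen. In the gene order of GRCm38.p6, Cxcl5, Ppbp, Pf4, Cxcl3, Cxcl15, Cxcl1 and Cxcl2 follow each other. The 3 of these that were tested all fell. Cxcl3 read -4.28 and -5.36 in OSK and was not well above background in OSK+Glis1, 2.69-fold lower as a floored fold (limma adjusted p = 0.00691). The CC cluster runs from Ccl2 through Ccl7, Ccl11 and Ccl12 to Ccl8, and here neighbours gave unlike values: 1.29 for Ccl2, -0.07 for Ccl7, -4.45 for Ccl11 and -1.80 for Ccl8. The value of Ccl11 uses OSK+Glis1 signals that were not well above background. Under normexp with flagged backgrounds replaced, Ccl11 was at -1.08 and Ccl8 at -1.68. The differences between neighbours were not tested. Ccl11 (eotaxin), an eosinophil attractant made by fibroblasts, read -3.22 and -4.15 in OSK and was not well above background in OSK+Glis1. It was 5.92-fold lower as a floored fold (limma adjusted p = 0.00458). Ccl12 was not well above background on any array.

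Of 28 further chemokine ligands, 26 had a probe and 10 were tested, with 2 higher (20%) and 2 lower (20%), beside 6.05% and 8.17% of all genes, and a median difference of 0.69. Cxcl3, Ccl11 and Cxcl17, 3 of these 4, passed the filter only through the group where they were high. Among genes well above background on all 4 arrays, 2 of these ligands were higher and 0 lower, beside 935 and 1323 of all 17350 genes. The lower genes were Cxcl3, a ligand of Cxcr2 like Cxcl1 and Cxcl5, and Ccl11. Cxcl10, an interferon-induced attractant of T cells, read -0.92 and -1.31 in OSK and 3.18 and 1.18 in OSK+Glis1. It rose 9.78-fold, by 3.29 ± 0.68 SE on the log2 scale, with an adjusted p of 0.0404 in limma. That call was lost without either OSK array in turn (adjusted p of 0.145 and 0.186). For Cxcl17, a mucosal chemokine, the rise was 11.9-fold as a floored fold, with an adjusted p of 0.00478 in limma. These bounds did not hold under normexp with flagged backgrounds replaced, where the log2 differences were 1.63 for Cxcl17, -1.08 for Ccl11 and -0.82 for Cxcl3. Under plain normexp that of Cxcl17 was 0.16. Leaving out either OSK array reduced the ligands called higher to 1, and leaving out OSK+Glis1 replicate 2 raised them to 4.

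Most receptors of these chemokines were not well above background. Cxcr2, Ccr1, Ccr2 and Ccr6, the receptors of Cxcl1 and Cxcl5, of Ccl9, of Ccl2 and of Ccl20, were well above background on none of the 4 arrays, and Cxcr6, the receptor of Cxcl16, on 1. Of 23 chemokine receptors 7 were tested, with 2 higher and 2 lower (28.6% each), beside 6.05% and 8.17% of all genes. Their median difference was -0.10. Ackr1 and Ccr7 passed the filter only through the group where they were high. With only receptors well above background on all 4 arrays, 1 was higher and 1 lower, beside 935 and 1323 of all 17350 genes tested in that way. Cxcr4, the receptor of Cxcl12, read -0.95 and -0.77 in OSK and 0.53 and 0.47 in OSK+Glis1. It rose 2.56-fold (1.36 ± 0.17 SE, limma adjusted p = 0.0107), and its adjusted p became 0.0567 when OSK replicate 1 was left out and 0.0602 when OSK+Glis1 replicate 1 was. Ackr3, a scavenging receptor of Cxcl12, read 4.22 and 3.22 in OSK and 3.28 and 3.12 in OSK+Glis1 (difference -0.52, 95% confidence interval -1.46 to 0.43).

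The lower receptors were both atypical ones that bind ligands without classical signalling. Ackr1, which binds many inflammatory CXC and CC chemokines, was 3.08-fold lower as a floored fold (limma adjusted p = 0.00253). Ccrl2 fell 10.3-fold, from -0.98 and -1.27 to -4.24 and -4.73 (-3.36 ± 0.24 SE, limma adjusted p = 0.00322). With flagged backgrounds replaced under normexp these differences were -0.66 for Ackr1, less than the bound, and -2.29 for Ccrl2. Ccr7, a receptor of lymph node homing, was flagged as well above background on neither OSK array. As a floored fold it was 2.32-fold higher in OSK+Glis1 (limma adjusted p = 0.00332). The Ccr7 call was lost after the same normexp correction as above (difference 0.53, limma adjusted p = 0.121). Without OSK replicate 1 or OSK+Glis1 replicate 1, 1 receptor was higher.

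**Figure D4:**
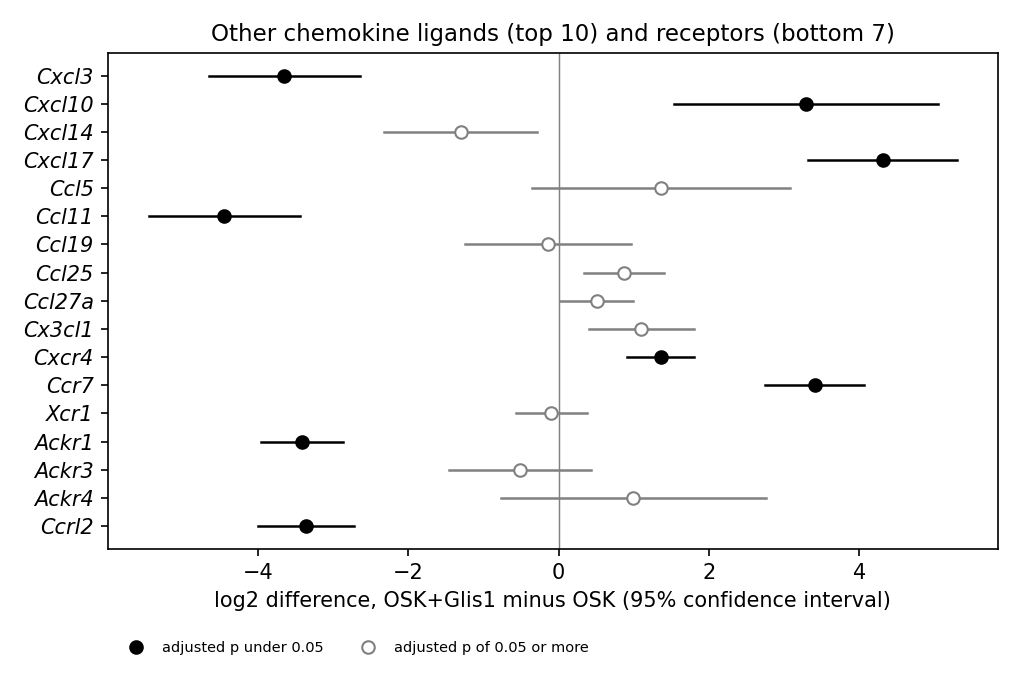
Log2 difference between OSK+Glis1 and OSK (x axis; bars are 95% confidence intervals from limma) for the 10 other chemokine ligands and 7 receptors that were tested; filled points passed an adjusted p of 0.05. Cxcl3, Ccl11, Ackr1 and Ccrl2 are filled on the left, and Cxcl10, Cxcl17, Cxcr4 and Ccr7 on the right. The values of Cxcl3, Ccl11, Cxcl17, Ackr1 and Ccr7 use signals of 1 group that were not well above background, and Ackr4 uses 1 such OSK signal.

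Of 25 tested genes of the NF-kB pathway (29 listed), 2 were higher (8%) and 1 lower (4%), near the 6.05% and 8.17% of all genes, with a median difference of -0.06. The adaptor Traf1 fell 3.24-fold (-1.70 ± 0.30 SE, limma adjusted p = 0.0267), and the Toll-like receptor Tlr2 rose 2.63-fold (1.40 ± 0.18 SE, limma adjusted p = 0.0114). Tnf, also without that flag on the OSK arrays, was 1.51-fold higher as a floored fold, at an adjusted p of 0.0493 in limma. This did not hold in the deposited values (log2 difference 0.64, limma adjusted p = 0.437), without the filter on dim probes (limma adjusted p = 0.139), or under normexp with flagged backgrounds replaced (0.08, limma adjusted p = 0.856). The Traf1 and Tnf calls were lost without any 1 of the 4 arrays, and the Tlr2 call without each array other than OSK+Glis1 replicate 1. The interleukin 1 genes Il1a and Il1b, whose products induce Cxcl1, Cxcl5 and Ccl20 in fibroblasts, were not well above background on any array.

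Of 9 tested genes that shed, trim or display chemokines, 1 was higher (11.1%) and 2 were lower (22.2%), beside 6.05% and 8.17% of all genes. Their median difference was -0.39. Dpp4, a surface protease that clips the leading residues of many chemokines including Cxcl12, fell 8.92-fold, from -0.57 and -1.19 to -4.00 and -4.07 (-3.16 ± 0.26 SE, limma adjusted p = 0.00404), and its difference was -2.29 under normexp with flagged backgrounds replaced. The heparan sulphate proteoglycan Sdc3 fell 4.13-fold by its brightest probe, a log2 difference of -2.04 (limma adjusted p = 0.0205). Averaging its probes gave -1.30. Gpc1 rose 2.06-fold (limma adjusted p = 0.0396). Sdc3 lost its call without either OSK array in turn, leaving 1 gene lower, and Gpc1 without any 1 array, leaving none higher.

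The 3 genes whose pattern over the 4 arrays was closest to that of Cxcl5, among 13509 other genes with a symbol, were Shisa2, Egfr and Gpm6b. Likeness was the Euclidean distance between levels centred on each gene's own mean, which came to 0.098, 0.143 and 0.159 log2 units. Their differences were -2.74, -2.62 and -2.61, beside -2.77 for Cxcl5. With 4 arrays many genes lie close together, and the list says nothing of shared control.

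Markers of cell types moved as well, and their part in the chemokine differences was not tested. Of the markers tested, 50% of fibroblast, 33.3% of epithelial, 14.3% of leukocyte and 0% of endothelial ones were called lower, beside 8.17% of all genes. Called higher were 8.33%, 0%, 0% and 33.3% of these lists in the same order, beside 6.05% of all genes. Of 12 fibroblast markers all were tested, 6 were lower and 1 higher (2 lower without OSK replicate 1, 3 without OSK replicate 2), with a summed signal of 461 and 416 times the 75th percentile in OSK and 385 and 348 in OSK+Glis1. The highest signals, which weigh most in this sum, were those of Vim, S100a4 and Col1a2. Their log2 differences were -0.12, -0.21 and 0.16, and none of these was called. The median log2 difference of the list was -1.29. The log2 differences of Dcn, Fap and Postn were -2.62, -2.55 and -2.42, and that of the receptor gene Pdgfra was 2.63. The limma adjusted p was 0.0163 for Dcn, 0.0123 for Fap, 0.0274 for Postn and 0.0416 for Pdgfra, and no fibroblast marker was called higher without OSK replicate 1, OSK replicate 2 or OSK+Glis1 replicate 1. Of 9 tested epithelial markers 3 were lower and none higher (1 lower without OSK replicate 1), with a summed signal of 44.3 and 33.8 in OSK and 12.4 and 21.4 in OSK+Glis1. The log2 differences of Krt14, Cldn7 and Trp63 were -3.11, -2.93 and -1.40, with limma adjusted p of 0.00485, 0.0157 and 0.0438. Of the 6 not called, Krt8, Epcam and Esrp1 were at -1.97, -1.64 and -0.13. Cdh1, Krt18 and Krt5 were at 0.03, 0.27 and 0.71.

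Of 17 leukocyte markers with a probe, 7 were tested, 1 was lower (14.3%, beside 8.17% of all genes) and none higher. On no array were 7 of the 17 well above background, among them the macrophage genes Adgre1, Itgam, Lyz2 and Fcgr1. The summed signal of the list was 8.02 and 4.21 in OSK and 1.06 and 1.41 in OSK+Glis1. It was carried by S100a9, which epithelial cells also make and which read 2.87 and 1.87 in OSK and -1.30 and -0.45 in OSK+Glis1 (limma adjusted p = 0.0138, and 0.0665 without OSK replicate 1). Without OSK+Glis1 replicate 2, 2 markers were lower. Ptprc, the defining surface gene of leukocytes, was well above background on 1 array. Of 3 tested endothelial markers 1 was higher, Kdr by 2.28 (limma adjusted p = 0.0159, and 1.46 under normexp with flagged backgrounds replaced; no marker higher without OSK replicate 1 or OSK+Glis1 replicate 2), and Pecam1 was well above background on no array; the summed signal was 1.67 and 1.21 in OSK and 0.99 and 1.36 in OSK+Glis1.

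**Figure D5:**
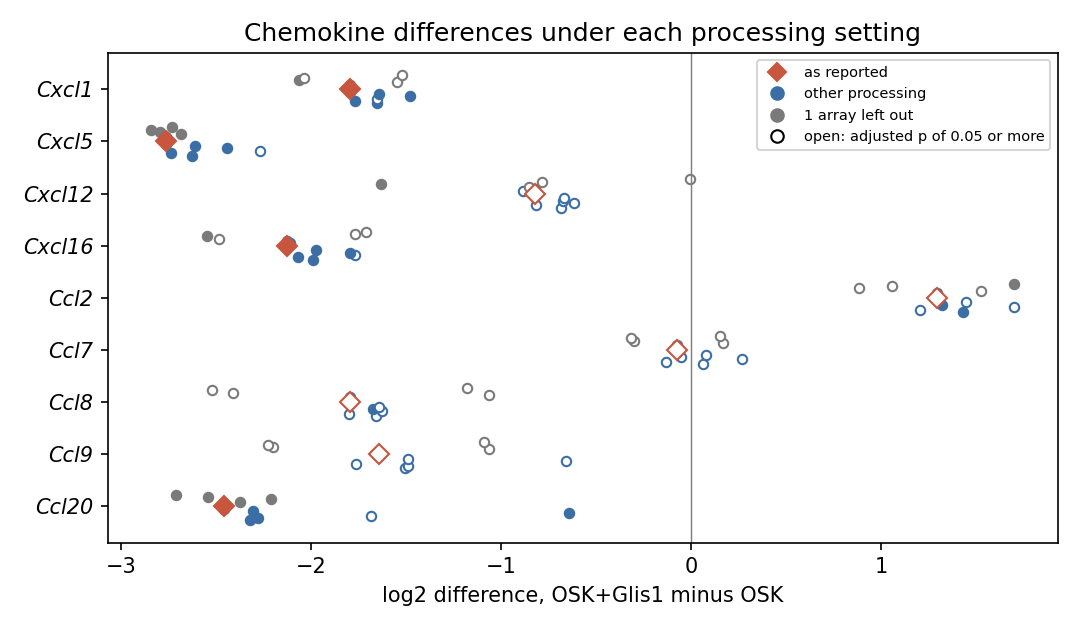
Log2 difference of each tested chemokine (x axis) under every processing setting: red diamonds as reported, blue circles other processing, grey circles with 1 array left out; filled symbols passed an adjusted p of 0.05. All values of Cxcl1, Cxcl5, Cxcl16, Ccl8, Ccl9 and Ccl20 lie left of 0 and all values of Ccl2 right of it, while Ccl7 straddles 0; settings that change only the p of a gene lie behind its diamond.

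Across the settings tried, the signs of 8 of the 9 tested chemokines did not change. Cxcl5 ranged from -2.84 to -2.27, Cxcl1 from -2.07 to -1.48, Cxcl16 from -2.55 to -1.71, Ccl20 from -2.71 to -0.64 and Ccl2 from 0.88 to 1.70. Adjusted p-values from limma ranged from 9.8e-05 to 0.281 for Cxcl5, from 0.00578 to 0.398 for Cxcl1, from 0.00395 to 0.467 for Cxcl16, from 0.00476 to 0.582 for Ccl20 and from 0.0182 to 0.582 for Ccl2.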

How the data were processed

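RNA of 4 samples was measured on Agilent arrays with 1 dye, all on 1 slide. The authors deposited intensity values; per the file headers, Agilent Feature Extraction 10.7.3.1 wrote them: a processed signal that is background-subtracted and detrended but not normalized between arrays, raw medians, and other columns of quality flags. Their deposited log2 table equals log2 of the processed signal minus the array's median (a single constant per array fits 99.8% to 99.9% of probes within 0.01); its column medians were 3.1e-06 and -0.00016 for OSK and 0.000216 and 4.8e-05 for OSK+Glis1, and its tool stays unknown.

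Here, log2 processed signal minus the array's 75th percentile was used. Control and outlier spots were left out and spots of a probe averaged. Genes were named by accession through RefSeq's GRCm38.p6 gene table (26933 of 41174 probes) and represented by their brightest probe. Probes were tested if both OSK arrays or both OSK+Glis1 arrays had them well above background. Groups were compared with limma 3.58.1 in R 4.3.3 (lmFit, eBayes, two-sided, Benjamini-Hochberg over 19171 genes, threshold 0.05), a step tested on simulated data. Because the arrays were annotated on mm9, the only coordinates given are those of the RefSeq promoters. The members and lists were chosen with earlier results of these data known. Named genes are all members, a fixed set of receptors that bind members, up to 4 called genes per list, and the 3 profiles nearest Cxcl5. Genes at background, cluster neighbours and markers that were not called were added after their values were seen. Slide could not be a block, since there was only 1, and normexp used median spot signals.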

Additional observations from a re-analysis of the deposited data

How the results depend on the processing

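The count of chemokines called lower (4) was 0 under the planned normexp background correction, where limma called 0 of 19171 genes (1411 genes and 4 chemokines at an unadjusted p under 0.05), and 2 without a filter on dim probes. It was 5, with Ccl8 added, under normexp with flagged backgrounds replaced. Leaving out 1 array gave 2 to 5, with the lone array assumed to vary like the other group. The count higher (0) was 1, Ccl2, with median centring, with the replicate block and with normexp after flagged local backgrounds were replaced by the array median, an alternative chosen after seeing the data, and 0 to 1 with 1 array left out. Genes called in all (2726) numbered 1504 without a filter and 1219 to 1879 with 1 array left out. Ccl7 changed sign, to 0.063 with median centring, 0.27 under normexp and 0.0782 in the deposited values, and ran from -0.32 to 0.17 with 1 array left out. Under normexp Ccr7 was at -0.87 and Tnf at -1.22. The cause was not tested.

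Median centring and the deposited values moved the median difference of all genes from 0.05 to 0.19 and 0.21, and the share of calls that were higher from 42.6% to 53% and 54.3%. Over all genes, same-numbered arrays did not deviate together (correlation 0.00938). The labels do not say whether the numbers pair, so they were not taken as pairs in the main test. Among the chemokines, replicate 1 lay above replicate 2 in both groups for Cxcl1, Cxcl5, Ccl2, Ccl7, Ccl8 and Ccl9. This did not hold for Cxcl12, Cxcl16 and Ccl20. With the replicate block 6 chemokines were lower, Ccl8 (limma adjusted p = 0.00884) and Ccl9 (0.0102) added, and 1 was higher, Ccl2 (0.0245). Signal near background limits what can be said of Cxcl2, Ccl9 and Ccl20.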
